A study of Mus musculus with 23 samples.

Results

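The mitochondrial respiratory chain subunits were followed through all 6 combinations of p53 genotype and water bath. Members were taken by gene symbol, as every probe for an Nduf a, b, c, s or v gene (complex I and its assembly factors), for Sdha to Sdhd (complex II), and for the Uqcr (complex III), Cox4 to Cox8 (complex IV) and Atp5 (complex V) families. The rule uses names and no measured value, though it was set with earlier results of these data known. The array carried 98 such probes among 36227. Of these, 5 were annotated to several genes, none of which was called in any comparison, and they were left out of every count because no gene can be named from them. The remaining 93 probes named 83 of the 18069 genes named on the array by probes with 1 symbol: 34 probes for complex I, 9 for complex I assembly factors (the Ndufaf genes), 4 for complex II, 11 for complex III, 16 for complex IV, 18 for complex V, and 1 for the pseudogene Ndufs5-ps.

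Transcripts were measured with CodeLink 1-colour arrays in whole mouse embryos of day 8.5, wildtype (p53 +/+), heterozygous (p53 +/-) or null (p53 -/-), which spent 10 minutes in water at 38 °C (control) or 43 °C (heat). Pools of 3 to 7 embryos made up each of 23 samples, 4 per group and 3 for null heat, and replicates are lettered A to D in the labels. The study asked how hyperthermia and p53 act on gene expression. All genotypes came from the same matings of heterozygous mice, and what is measured is the whole embryo, so fewer cells of a type and less RNA per cell cannot be told apart.

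The respiratory chain passes electrons from NADH (complex I) or succinate (complex II) through ubiquinone to complex III, then through cytochrome c to complex IV, where oxygen is reduced. Complexes I, III and IV pump protons, and complex V (ATP synthase) uses that gradient to make ATP. Most subunits are encoded in the nucleus, a few in the mitochondrial genome, and no probe of the mitochondrial genome was named here. Embryos of this stage lie at the turn from glycolysis towards more oxidative metabolism, as the circulation starts.

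The promoters of 3 members called in at least 1 comparison are shown, because they differ in which core elements they hold. Each is the stretch of 250 bases before the RefSeq start on assembly GRCm38.p6, written 5′ to 3′ on the gene's strand, with capitals at matches to the elements searched: the ETS core of GABPA (CCGGAAG), the CCAAT box (CCAAT) and the GC box of SP1 (GGGCGG), all on both strands. Ndufaf7 lies at chr17:78936885-78937134 on the plus strand and held none of them. Ndufa10 lies at chr1:92473759-92474008 on the minus strand, and Atp5e at chr2:174464102-174464351 on the minus strand.
Ndufaf7: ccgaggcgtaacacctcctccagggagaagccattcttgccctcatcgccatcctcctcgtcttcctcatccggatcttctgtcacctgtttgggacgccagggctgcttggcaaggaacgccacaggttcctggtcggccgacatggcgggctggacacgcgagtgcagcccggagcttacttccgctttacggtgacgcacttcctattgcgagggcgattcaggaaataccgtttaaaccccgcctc
Ndufa10: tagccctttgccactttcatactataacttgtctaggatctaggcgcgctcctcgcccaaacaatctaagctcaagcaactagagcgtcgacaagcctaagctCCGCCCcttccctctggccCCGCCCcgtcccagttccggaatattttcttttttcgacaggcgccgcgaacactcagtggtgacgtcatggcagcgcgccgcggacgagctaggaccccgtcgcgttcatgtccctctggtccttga
Atp5e: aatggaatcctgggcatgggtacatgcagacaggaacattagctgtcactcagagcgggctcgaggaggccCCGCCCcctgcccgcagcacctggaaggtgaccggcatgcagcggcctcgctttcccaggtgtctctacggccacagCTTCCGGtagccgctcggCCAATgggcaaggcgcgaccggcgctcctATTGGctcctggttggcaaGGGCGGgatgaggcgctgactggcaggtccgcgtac

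A window was found for 67 of the 83 member genes. The ETS core was in 13 of them (19.4%), against 7.83% of all 27025 genes with a window. Complex I held it in 2 of 27 genes (7.41%), near the share of all genes. The other classes held it in 2 of 6 assembly factors and 1 of 3 complex II genes. For complexes III, IV and V it was 2 of 5, 2 of 12 and 4 of 14. The palindrome of NRF1, a factor known for nuclear respiratory genes, was in 5 member genes (7.46%), against 0.877% of all genes. The CCAAT box was in 30 (44.8% against 37.5%) and the GC box in 26 (38.8% against 35.4%). The YY1 core (AAGATGG) was in 1 (1.49% against 5.18%), the 3-unit heat shock element in 0 (against 0.514%) and a p53 half-site in 3 (4.48% against 8.2%). These are matches of letters within 1 window and describe sequence only.

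The probes were bright. On the deposited scale, where an array's median lies near 1, the median over the tested members was 39.1 in wildtype heat A and at most 59.4 (null control D). 78 of the 93 probes, for 74 genes, could be tested across both baths: 33 of 34 for complex I, 7 of 9 assembly factors, 4 of 4 for complex II, 7 of 11 for complex III, 11 of 16 for complex IV, 15 of 18 for complex V, and Ndufs5-ps. Empty cells in the authors' control columns took out the others, 109 of 1116 member cells there against 0 in the heat columns. They were emptied at both ends of the intensity scale. Dim probes such as Cox7b2, Uqcrq and Ndufaf8 lay between 0.0956 and 0.456 on the heat arrays and were empty on 10, 10 and 11 of 12 control arrays respectively. The heat arrays gave 0.0956 to 0.354 for 1 probe each of Ndufaf5, Uqcrc2 and Atp5c1, which were empty on all 12. Bright ones (Cox6a1, Cox7b, Cox7c, Atp5g3, Atp5o and 1 probe of Uqcrh) had heat medians of 154.3 to 195.4. Bath and the processing of the control and heat arrays cannot be told apart.

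Most members had a lower mean in wildtype heat than in wildtype control, but not in every pool. Of the 78 members, 59 had a log2 fold change below 0 and the median was -0.133 (all 21924 tested probes, 0.011). The median by complex was -0.099 for complex I (23 of 33 below 0), -0.232 for complex II (4 of 4), -0.163 for complex III (6 of 7), -0.125 for complex IV (7 of 11) and -0.124 for complex V (13 of 15), and -0.237 for the assembly factors (5 of 7). For complexes I, IV and V the lower pools were C and D. Scored as the mean deviation of a complex's probes from their means over all arrays, wildtype heat A and B gave 0.024 and 0.111 for complex I, -0.012 and 0.116 for complex IV and 0.056 and 0.068 for complex V. The wildtype controls ran from -0.003 to 0.098, from -0.043 to 0.089 and from 0.017 to 0.132. Wildtype heat C and D gave -0.193 and -0.272, -0.127 and -0.212, and -0.256 and -0.298. In the same comparison the 6 yolk sac markers had a median of -0.581, with 1 called lower (Apoa2 at -1.40 ± 0.35, adjusted p = 0.0308), and their summed levels ran from 109 to 245 in heat and 178 to 250 in control. Medians of other marker lists in wildtype heat were also below 0. They were -0.244 for primitive red cells, -0.221 for heart muscle, -0.207 for somite and -0.079 for neural tube. The yolk sac median was 0.577 in heterozygous and 0.388 in null heat. The part of these markers in the shift was not tested. In heterozygous pools the members' median was -0.083 (58 of 78 below 0, all probes 0.016), with complex IV nearest 0 at -0.013. In null pools it was 0.018 (38 of 78 below 0, all probes -0.033), from -0.055 for complex I to 0.123 for complex IV, of which 8 of 11 were above 0. These are counts over members that share pools, and the differences between complexes were not tested.

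The size of the wildtype shift depended on scaling, and so did the sign in null pools. With each array centred on its median the members' median was -0.28 in wildtype, -0.161 in heterozygous and -0.125 in null pools, and on the values as deposited, with no further scaling, it was -0.397, -0.208 and -0.048. The scaling moved all probes too, to medians of -0.003, 0.014 and -0.108 when centred and -0.12, -0.034 and -0.031 as deposited. The members thus lay below the median of all probes under each of these 3 scalings in wildtype and heterozygous pools, while in null pools they lay above it in the quantile-scaled values and slightly below it in the other 2.

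**Figure D1:**
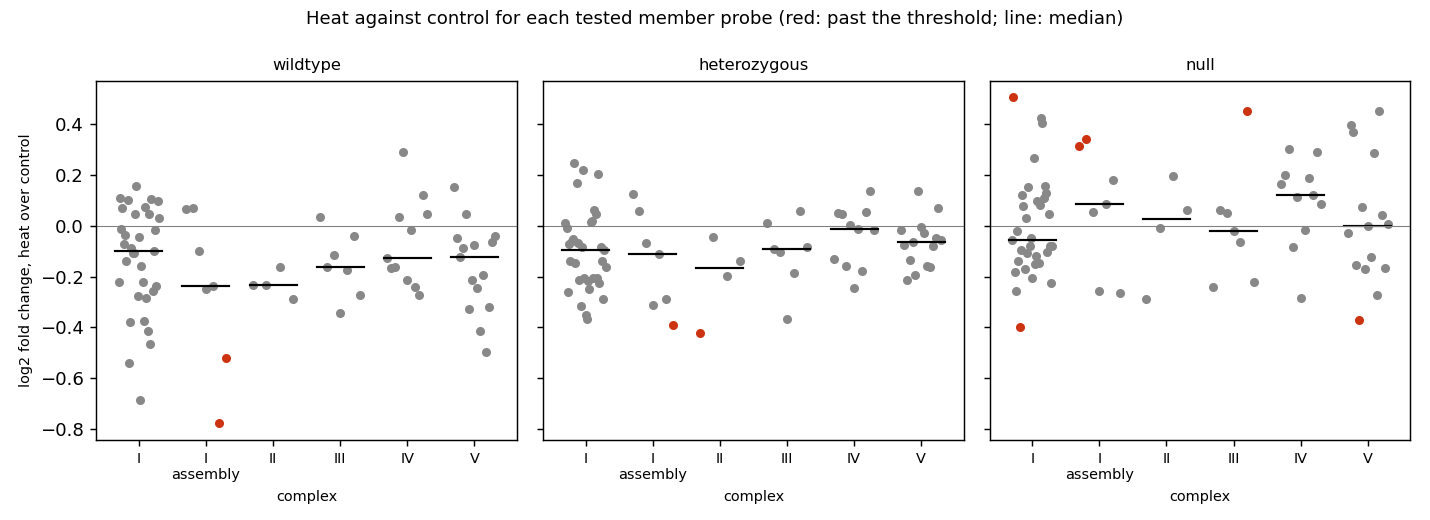
Log2 fold change of heat over control (y axis) for each tested member probe, by complex (x axis), in wildtype, heterozygous and null pools. Red points passed the threshold and the line is the complex's median. All 4 complex II points and 13 of 15 complex V points lie below 0 in wildtype, and 8 of 11 complex IV points lie above 0 in null.

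Few single members passed the threshold (limma, Benjamini-Hochberg adjusted p under 0.05 over all tested probes). In wildtype heat 0 members rose and 2 fell, both probes of Ndufaf7, while 1.29% of all probes were called higher and 1.8% lower. Calls over all probes were 41.7% higher as analysed, 30.7% when centred and 9.92% as deposited. At an unadjusted p under 0.05 there were 19 of 78 members and 3911 of 21924 probes. The values as deposited gave 32 called members, all lower, among 1975 called probes. The centred values gave 14, all lower, among 1004 called probes, against 676 called probes as analysed.

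Ndufaf7, a mitochondrial methyltransferase needed to assemble complex I, was called on at least 1 probe in 4 comparisons. Its probe 1 read 7.99, 6.58, 6.96 and 7.16 in the wildtype control pools and 3.92, 4.19, 4.42 and 4.16 in the wildtype heat pools, with no overlap. That is a fall by 0.78 ± 0.12 (SE, log2; adjusted p = 7e-04). Its probe 2 read 17.3, 15, 16.4 and 14.8 in wildtype controls and 9.89, 11.8, 11.5 and 11.1 in wildtype heat, again apart. It fell by 0.52 ± 0.09 (adjusted p = 0.00147). Both probes were lower in every wildtype heat pool, and both calls stood when each pool was left out in turn. Quantile normalization that leaves empty cells missing, which moved the median of all probes to 0.896, gave 0.01 and 0.06 for the 2 probes.

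In heterozygous embryos the probes parted. Probe 2 read 17.1, 16.7, 15.2 and 15.8 in control and 11.1, 13.7, 12 and 12.8 in heat, with no overlap, and fell by 0.39 ± 0.09 (adjusted p = 0.0159). Probe 1 read 7.28, 6.66, 5.26 and 5.13 in control and 4.26, 5.35, 5.32 and 4.83 in heat. Here the groups overlapped, since control pools C and D were already as low as heat pools, and the change of -0.29 ± 0.12 did not pass (adjusted p = 0.223). The probe 2 call was lost without heterozygous control A (adjusted p = 0.0553), heterozygous heat A (0.0755) or heterozygous heat C (0.051).

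In null embryos probe 1 read 5.29, 3.91, 4.93 and 4.45 in control and 5.87, 4.94 and 4.94 in heat, overlapping ranges with a change of 0.18 ± 0.13 (adjusted p = 0.367). Probe 2 read 15.3, 15.5, 15.1 and 16.4 in control and 13.9, 13.6 and 11.5 in heat, all lower than control, at -0.27 ± 0.09 (adjusted p = 0.084). The null control pools stood low on probe 1 but level with wildtype on probe 2: null against wildtype control was -0.63 ± 0.12 on probe 1 (adjusted p = 0.00816) and -0.02 ± 0.09 on probe 2 (adjusted p = 0.887).

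The heat response of probe 1 differed between null and wildtype, by 0.96 ± 0.17 (adjusted p = 0.0184). It was the 1 member called for that difference, against 0.333% of all probes higher and 0.68% lower. At an unadjusted p under 0.05 there were 15 of 78 members and 4857 of 21924 probes. Of all called probes 32.9% were higher as analysed, 30.8% when centred and 75.5% as deposited. As deposited 2 members were called, both higher, among 649 called probes, against 222 called probes as analysed. Probe 2 gave 0.25 ± 0.13 (adjusted p = 0.24), so the second probe for the same gene did not pass. Without null heat B the difference for probe 1 kept its direction and was no longer called (adjusted p = 0.0594). For heterozygous minus wildtype, probe 1 gave 0.49 ± 0.17 (adjusted p = 0.542) and Ndufb2, a small complex I subunit, -0.31 ± 0.14 (adjusted p = 0.805). There 0 members were called, with 0% of all probes higher and 0% lower. An unadjusted p under 0.05 was seen for 2 of 78 members and 1324 of 21924 probes.

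**Figure D2:**
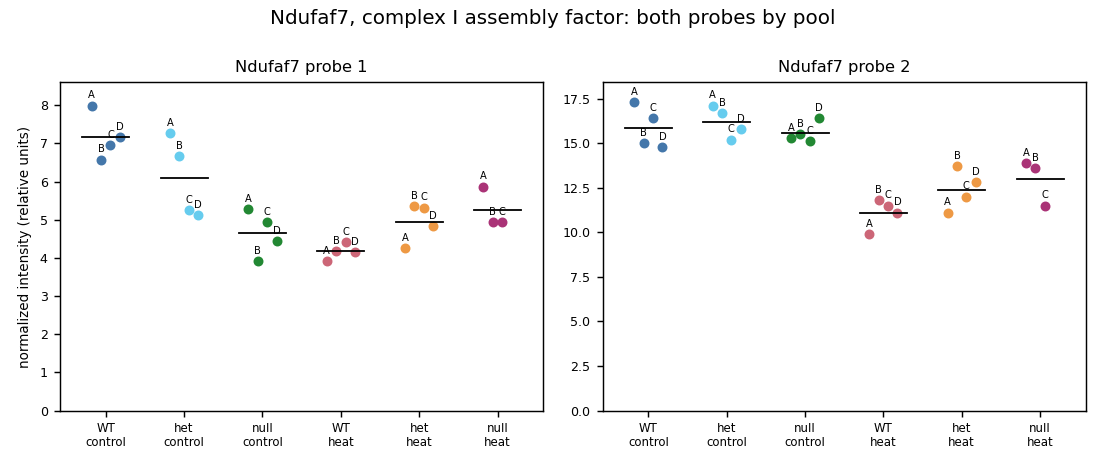
Normalized intensity (y axis, relative units, from 0) of the 2 Ndufaf7 probes in each pool, lettered, by genotype and bath; the line is the group mean. Wildtype heat pools lie below wildtype control pools on both probes, and null control pools lie low on probe 1 alone.

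In heterozygous heat the other call was Sdha, the flavoprotein that oxidizes succinate in complex II. It read 66.7, 60.7, 66.3 and 69 in control and 45.4, 44.9, 45.9 and 61.2 in heat. Pool D sat far above the other heat pools and overlapped the controls. Sdha fell by 0.42 ± 0.11 (adjusted p = 0.0385), and the call was lost without wildtype control D, heterozygous control A, C or D, heterozygous heat A, B or C, or null control C, with adjusted p up to 0.126. Here 0 members rose and 2 fell, against 0.743% of all probes higher and 1.58% lower. An unadjusted p under 0.05 was seen for 17 of 78 members and 3460 of 21924 probes. Higher calls made up 32% of all called probes as analysed, 27% when centred and 20.1% as deposited.

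In null embryos 4 members were called higher and 2 lower in heat, against 2.88% of all probes higher and 2.62% lower. Of all called probes 52.3% were higher as analysed, 36.4% when centred and 63.6% as deposited. An unadjusted p under 0.05 was seen for 15 of 78 members and 5675 of 21924 probes. The 4 that rose were Ndufa10 and the assembly factors Ndufaf1 and Ndufaf3, all of complex I, and Uqcrfs1 of complex III. The 2 that fell were Ndufa3 of complex I and Atp5e of complex V. With each array centred on its median, 0 members were called higher and 5 lower: all 4 rises lost their call (adjusted p from 0.0737 to 0.108) and both falls kept theirs. As deposited, 1 was called higher (Ndufa10) and 2 lower (Ndufa3 and Atp5e). Over all probes 1206 were called as analysed, 1075 when centred and 612 as deposited.

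Ndufa10, an accessory subunit of the membrane arm of complex I, read 35.8, 35.2, 33.8 and 34.4 in null control and 49.6, 57 and 42.7 in null heat. The heat pools were all above the controls, at 0.51 ± 0.14 (adjusted p = 0.0443). Null controls were also below the wildtype controls at 56.8, 49.8, 48.7 and 47.5, without overlap, by 0.54 ± 0.13 (adjusted p = 0.0218). The heterozygous controls split, with A and B at 56.2 and 57.1, within the wildtype level or above it, and C and D at 37.4 and 38.8, near the null level.

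Uqcrfs1, the Rieske iron-sulfur subunit of complex III, read 47.1, 43.9, 46 and 49.2 in null control and 66.1, 67.1 and 58.6 in null heat, apart, at 0.46 ± 0.12 (adjusted p = 0.0292). Its heterozygous controls split the same way, at 66 and 64.7 for A and B and 49 and 46.6 for C and D. Ndufaf3 read 12.1, 12.3, 12.4 and 13.3 in null control and 15.5, 16.3 and 15.8 in null heat, also apart, at 0.34 ± 0.08 (adjusted p = 0.0198). Ndufaf1, which acts early in assembly, read 20.6, 21.2, 19 and 21.1 against 27.3, 24.9 and 24.2, apart, at 0.31 ± 0.08 (adjusted p = 0.024). The 4 rising members each had their lowest group mean in null control.

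Atp5e, the small epsilon subunit of the ATP synthase, moved the other way. It read 129, 151, 142 and 145 in null control and 112, 118 and 98.6 in null heat, apart, and fell by 0.37 ± 0.09 (adjusted p = 0.0207). Ndufa3, a small accessory subunit of complex I, read 112, 118, 113 and 95.3 in null control and 97, 83.2 and 70.1 in null heat, which overlap, and fell by 0.40 ± 0.10 (adjusted p = 0.0287).

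The null heat count changed when single pools were left out. It was 0 without null control B, 2 without null control C and 1 without null heat B, with no share over all probes given. All 6 also lost the threshold when the split of the heterozygous control pools was taken as a covariate; the score is each array's position on the difference between A and B and C and D, computed without member probes. Its value was 0.471 and 0.571 in heterozygous control A and B, -0.524 and -0.434 in C and D, between -0.605 and -0.243 in null control, and 0.177, 0.424 and -0.295 in null heat, so it moved with the comparison. With it, Ndufaf3 gave 0.33 (adjusted p = 0.0634) and Ndufa10 0.22 (adjusted p = 0.315). Ndufa10, Uqcrfs1 and Ndufaf7 probe 1 had this split in their own heterozygous controls.

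**Figure D3:**
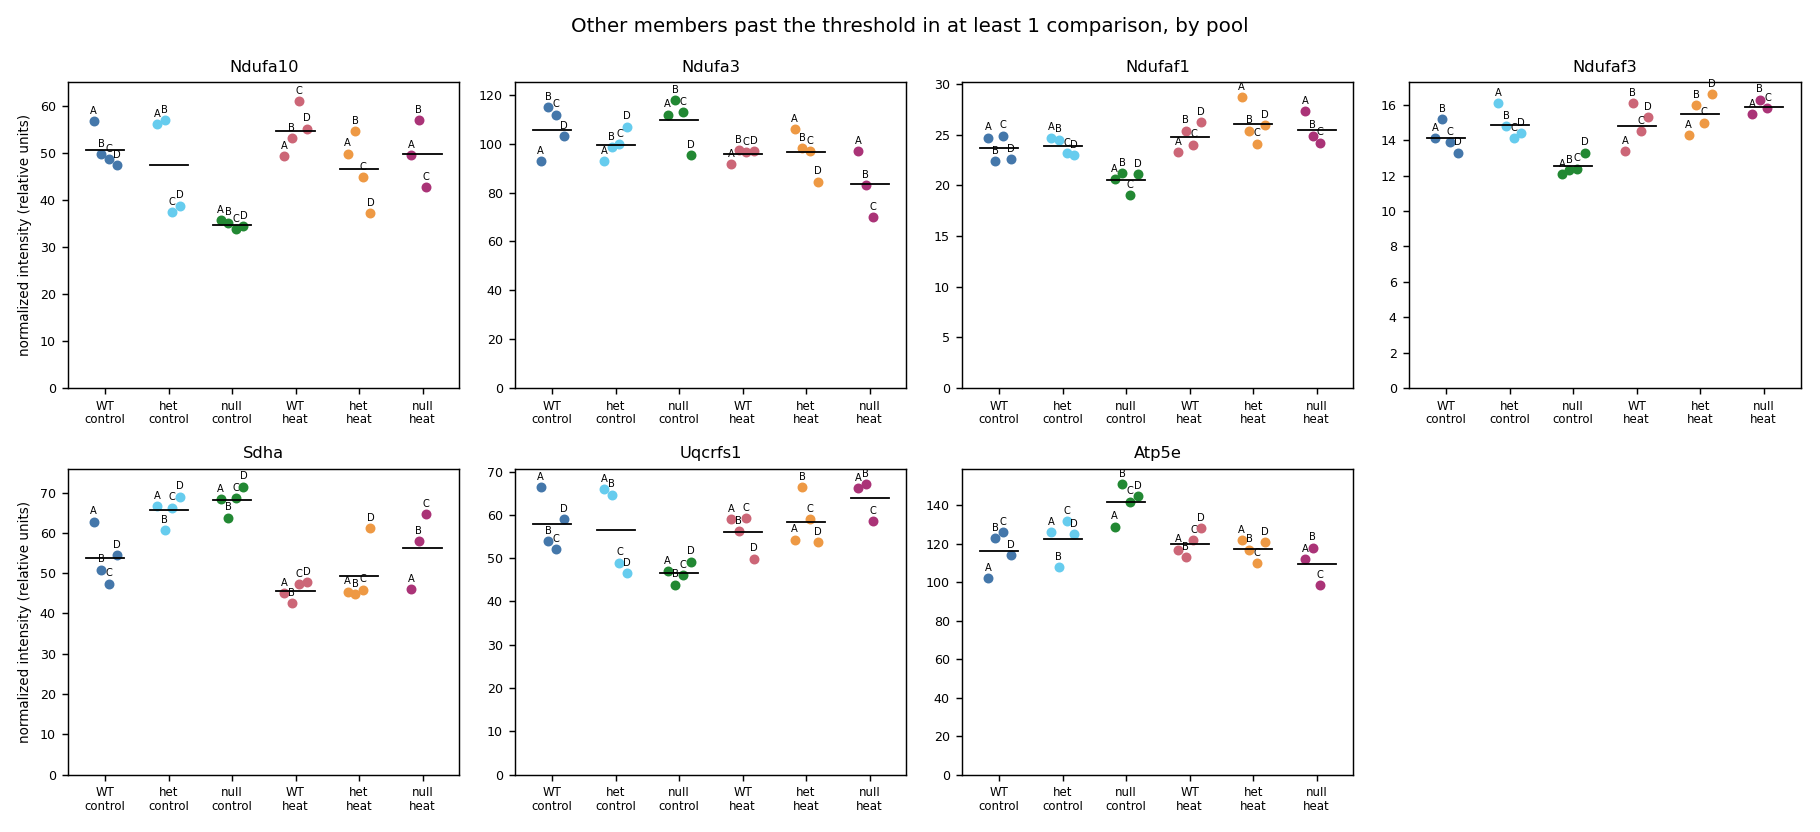
Normalized intensity (y axis, relative units, from 0) in each pool, lettered, for the 7 other members called in at least 1 comparison; the line is the group mean. Null control pools stand low for Ndufa10, Ndufaf1, Ndufaf3 and Uqcrfs1 and high for Atp5e, and heterozygous controls C and D fall below A and B for Ndufa10 and Uqcrfs1.

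Without heat, null and wildtype embryos differed at 4 members, 2 higher and 2 lower, against 3.69% of all probes higher and 4.69% lower. An unadjusted p under 0.05 was seen for 12 of 78 members and 5726 of 21924 probes. Ndufaf7 probe 1 and Ndufa10 were lower, as given above. Atp5e was higher: its wildtype controls read 102, 123, 126 and 114, all below the null controls, at 0.29 ± 0.08 (adjusted p = 0.0352). Sdha was higher, with wildtype controls at 62.8, 50.9, 47.4 and 54.4 against null controls at 68.4, 63.8, 68.6 and 71.5, without overlap, at 0.34 ± 0.11 (adjusted p = 0.0496). Neither higher call held under other scalings: 0 were higher and 2 lower when centred, and 0 higher and 3 lower as deposited, with adjusted p of 0.107 and 0.116 for Atp5e and 0.136 and 0.212 for Sdha. The Sdha call was lost in 26 of 34 alternatives. Over all probes 1837 were called as analysed, 1505 when centred and 1302 as deposited. The members' median was -0.027, against 0.039 for all probes.

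This count was 2 without wildtype control A or D and 1 without wildtype control B or null control B, C or D, and 0 with the split score as a covariate. No share over all probes is given for these fits. Ndufaf7 probe 1 alone kept its call without each pool in turn, and gave -0.44 with the covariate (adjusted p = 0.17). In null controls 2 of 4 tested markers of primitive red cells were called lower, where 4.69% of all probes were. Klf1 was lower by 1.10 ± 0.22 and Epor by 0.92 ± 0.21, and the list's median was -0.514. Both were dim, at 0.38 to 1.36 and 0.383 to 1.09 over all arrays. Gata1 and Hbb-y were not called. The 4 markers summed to 109 to 157 in null control against 110 to 177 in wildtype control; of these, the globin Hbb-y read between 74 and 183 over all arrays. Epor also rose in null heat, by 1.07 ± 0.22 (adjusted p = 0.0101), and its heat response was higher in null than in wildtype by 1.30 ± 0.29 (adjusted p = 0.0367); the list's median for that difference was 0.675, and it summed to 132 to 137 in null heat. Of 5 neural tube markers, Otx2 was lower in null controls by 0.95 ± 0.27 and Pax6 higher by 0.49 ± 0.14. The part of these markers in the null results was not tested.

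Heterozygous and wildtype controls gave 0 calls, with 0.00456% of all probes higher and 0% lower. An unadjusted p under 0.05 was seen for 4 of 78 members and 1301 of 21924 probes. The 2 of smallest p were Sdha at 0.29 ± 0.11 and Ndufa9 at 0.21 ± 0.09 (both adjusted p = 0.82). The median unadjusted 95% half-width over members was 0.223.

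Among heat pools, null against wildtype gave 0 calls (0.255% of all probes higher and 0.306% lower). There 13 of 78 members had an unadjusted p under 0.05, as did 4467 of 21924 probes. Of all called probes 45.5% were higher as analysed, 33.7% when centred and 88.9% as deposited. As deposited 10 members were called, all higher, among 1619 called probes, against 123 called probes as analysed. The nearest was Ndufaf6, an assembly factor of complex I, at 9.96, 9.16, 8.07 and 8.59 in wildtype heat and 9.73, 13.7 and 12.1 in null heat. The groups overlapped, at 0.40 ± 0.11 (adjusted p = 0.0925). Cox4i2, the isoform of the complex IV regulatory subunit known from lung and hypoxic cells, read 1.39, 1.53, 1.71 and 1.64 in wildtype heat and 2.12, 1.85 and 2.13 in null heat, apart, at 0.38 ± 0.12 (adjusted p = 0.115).

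Heterozygous against wildtype heat gave 0 calls (0.0365% of all probes higher and 0.105% lower). There 3 of 78 members had an unadjusted p under 0.05, as did 2580 of 21924 probes. Atp5h, a stator subunit of the ATP synthase, gave 0.27 ± 0.11 (adjusted p = 0.321) and Sdhd, a membrane anchor of complex II, gave 0.25 ± 0.11 (adjusted p = 0.368). The heterozygous and the null comparison share the wildtype heat pools. In both, all 4 complex II members were above 0, with medians of 0.097 and 0.186.

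The heat arrays alone, which hold no empty cell, let 84 member probes for 79 genes be compared between genotypes. Null against wildtype gave 0 calls (0.022% of all probes higher and 0.0573% lower), and heterozygous against wildtype 0 (0.00441% and 0%). At an unadjusted p under 0.05 the first had 10 of 84 members and 3429 of 22694 probes. The second had 3 of 84 members and 2112 of 22694 probes. Cox4i2 was the nearest in both, at 0.38 ± 0.10 (adjusted p = 0.283) and 0.25 ± 0.10 (adjusted p = 0.478). Of the bright members left empty in controls, Cox7c read 166, 168, 136 and 130 in wildtype, 156, 150, 159 and 165 in heterozygous and 161, 212 and 143 in null heat. Atp5g3, which encodes the ring subunit of the ATP synthase, read 174 to 242 in null heat and 191 to 200 in wildtype heat. The differences of the 6 bright members between null and wildtype ran from -0.03 (Uqcrh) to 0.19 (Cox7c).

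The tissue isoforms of complex IV are given as levels. Cox4i1 read 157 ± 21.1 in wildtype control and 144 ± 11.3 in wildtype heat (mean ± SD, n = 4). The muscle isoforms, probes for Cox6a2 and Cox7a1, read 2.42 ± 0.29 and 2.51 ± 0.32 in wildtype control and 3.00 ± 0.63 and 2.13 ± 0.37 in wildtype heat, with overlapping ranges. Their counterparts in other tissues, Cox6a1 and Cox7a2, read 224 ± 5.43 (n = 3) and 92.4 ± 5.34 in wildtype control and 176 ± 14 and 82.4 ± 35.7 in wildtype heat. Cox6a1 was not tested between baths because of empty control cells, and Cox7a2 did not pass. Cox6b1, Cox7a2l and Cox8a read 68.5 ± 3.72, 58.0 ± 5.19 and 94.4 ± 2.19 in wildtype control, and Cox8b was not above 0.682 in any pool with a value. Ndufa4l2, a Ndufa4 relative induced by hypoxia, read 18.1 ± 1.96 in wildtype control and 19.3 ± 0.74 in wildtype heat. None of those tested passed the threshold between baths or genotypes. Cox7a2l in null heat came nearest, at 0.29 ± 0.09 (adjusted p = 0.0613). Intensities of different probes are not compared.

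The fitted spread between pools had a median of 0.151 log2 over members, against 0.186 over all tested probes and 0.161 over probes of like level. It was largest for Ndufs5-ps (0.483), Ndufa5 (0.48), Atp5l (0.452), Ndufs3 probe 1 (0.425), Ndufb3 (0.419), Ndufc2 (0.414), Ndufa6 (0.355) and Ndufb7 (0.349). The wildtype heat pools differed for all 8, with A and B above C and D. Ndufa5 read 9.11 and 10.8 in A and B but 3.15 and 2.66 in C and D, and Atp5l, a subunit of the ATP synthase membrane part, read 48.4 and 48.1 but 18.1 and 15.2. Probe 1 of Ndufs3, a core subunit of complex I, read 9.5 and 9.1 but 3.41 and 2.69. Pools C and D lay below every other pool for these 3 probes. Probe 2 of Ndufs3 read 6.45, 7.19, 4.43 and 3.51 in wildtype heat A to D. Its lowest pools were others, with null heat C at 3.02 and heterozygous control D at 3.14.

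In 12 of 78 members (15.4%) the lower of A and B was more than 1.5-fold above the higher of C and D, an order seen in 1038 of 21924 tested probes (4.74%). Besides the 8 above these were Cox7a2 at 112, 114, 51.5 and 51.6, Cox5a at 26.6, 28.4, 15.2 and 12.2, Atp5md at 61.2, 64.3, 30.7 and 28.7, and 1 probe of Atp5g1. They belong to complexes I, IV and V, plus the pseudogene, and none to complexes II or III, of which 4 and 7 probes were tested. Uqcr11 of complex III held the same order below the cut, at 29.4, 30.7, 21.1 and 20.1. Atp5b, the catalytic beta subunit of the ATP synthase, read 57.8, 45.5, 63.9 and 50, with no such order. The order of pools was found in these data, is described and was not tested.

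The scores of complexes I, IV and V, given above, held the same order of pools. Complex III did not follow, at -0.119, -0.128, -0.052 and 0.028, nor did complex II at -0.229, -0.249, -0.07 and -0.181. Null heat B was above 0 and the highest null heat pool for every complex, from 0.07 for the assembly factors to 0.17 for complex I. It also had a highest deposited intensity of 235.2, against 369.7 and 488.3 in null heat A and C, and that measure was 383.6 and 362.2 in wildtype heat C and D against 287.8 and 321.5 in A and B. Heterozygous heat D, at 444.9 on that measure, was instead the highest heterozygous heat pool for complexes I, IV and V (0.021, 0.085 and 0.053). Heterozygous heat A, B and C had 345.8, 322.9 and 339.4. The part of array brightness was not tested.

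**Figure D4:**
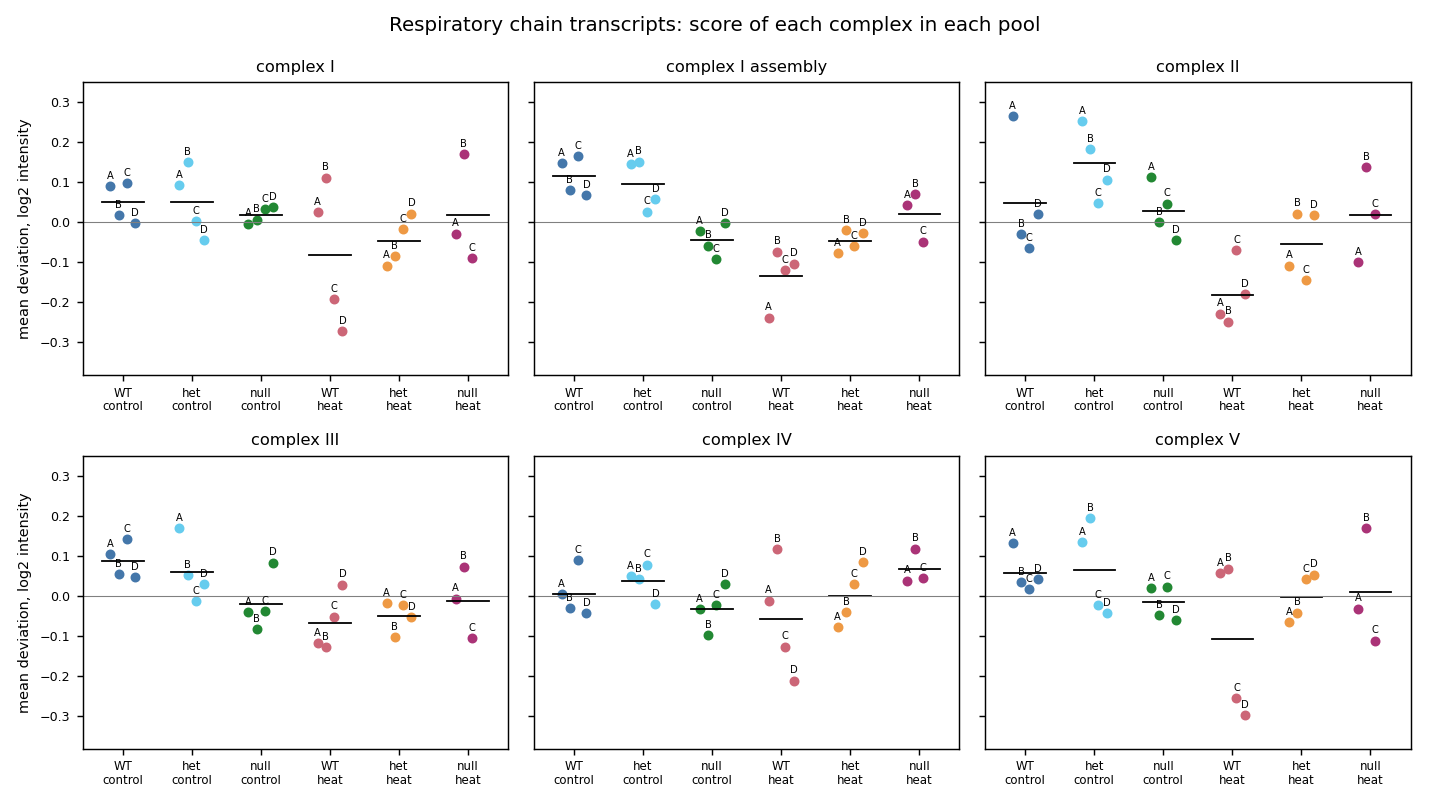
Score of each complex (y axis, mean deviation in log2 intensity) in each of the 23 pools, lettered, by genotype and bath; the line is the group mean. Wildtype heat C and D lie near or below -0.19 for complexes I and V, apart from A and B. Assembly factors and complex II lie below 0 in all 4 wildtype heat pools, and assembly factors also in all 4 heterozygous heat pools. The 7 assembly factor probes include both probes of Ndufaf7.

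**Figure D5:**
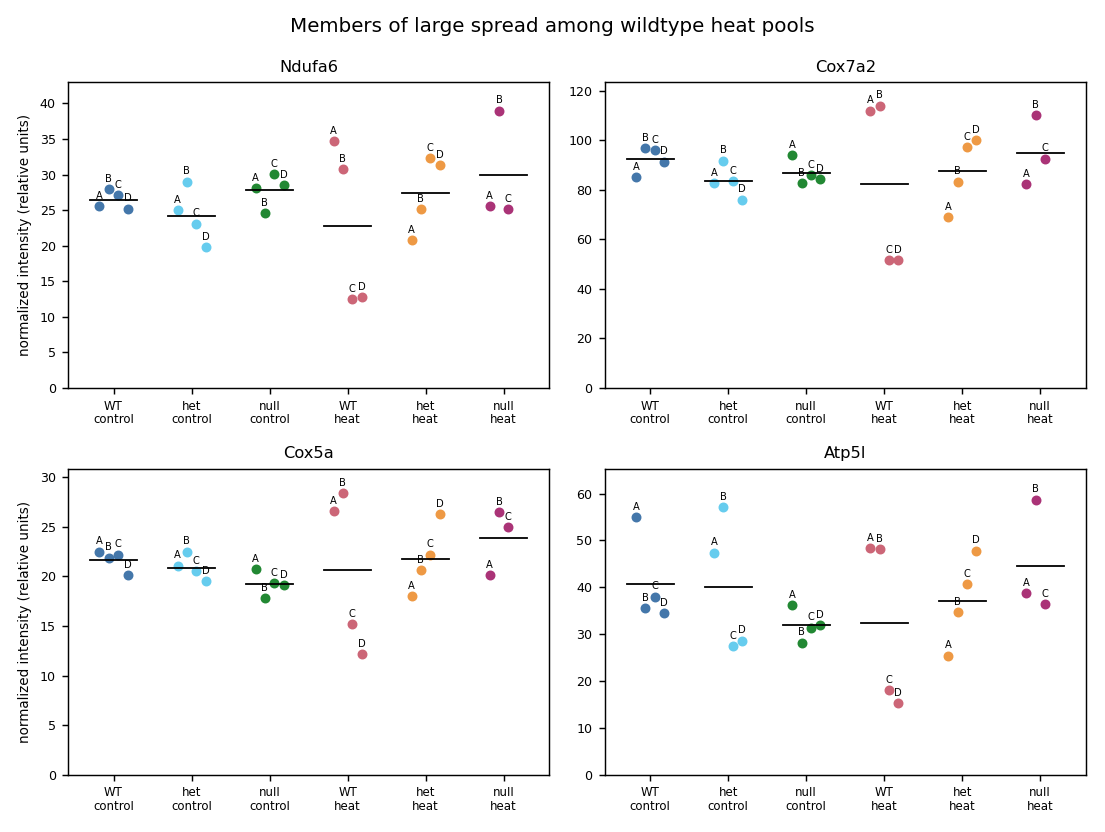
Normalized intensity (y axis, relative units, from 0) of Ndufa6, Cox7a2, Cox5a and Atp5l in each pool, lettered; the line is the group mean. In wildtype heat, A and B read 34.7 and 30.8 for Ndufa6 against 12.5 and 12.8 in C and D, while all other pools lie from 19.8 to 39.

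Other mitochondrial gene lists were counted beside the members. Of 72 mitochondrial ribosomal protein genes 0 rose and 3 fell in wildtype heat (Mrpl57 by 0.57, Mrpl17 by 0.33 and Mrpl48 by 0.29), with a median of -0.161, where 1.8% of all probes were called lower. In heterozygous heat 0 rose and 1 fell (Mrps27 by 0.43), where 1.58% of all probes were called lower, and in null heat 0 were called (median 0.1). In null against wildtype controls 0 were higher and 4 lower (median -0.163), where 4.69% of all probes were called lower: Mrps5 by 1.78 ± 0.37 (adjusted p = 0.0126), Mrpl45 by 0.86, Mrpl11 by 0.37 and Mrpl18 by 0.25. Of 10 electron carrier genes tested, Coq9, needed for ubiquinone synthesis, fell in wildtype heat by 0.46 ± 0.09 (adjusted p = 0.00628) and in heterozygous heat by 0.52 ± 0.08 (adjusted p = 0.00218).

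Nubpl, which delivers iron-sulfur clusters to complex I, was 1 of 4 further assembly factors and fell by 0.49 ± 0.08 in wildtype heat (adjusted p = 0.00209) and by 0.58 ± 0.08 in heterozygous heat (adjusted p = 0.000812). Another of the 4, Timmdc1, was lower in null than wildtype controls by 0.98 ± 0.27 (adjusted p = 0.0297). Of 21 assembly factors of complexes II to V, 0 rose and 1 fell in wildtype heat (Lyrm7 by 0.65), 1 rose and 1 fell in heterozygous heat (Surf1 and Coa3), and 1 rose and 1 fell in null heat (Surf1 by 0.50 and Uqcc2). In null against wildtype controls 0 were higher and 3 lower, where 4.69% of all probes were called lower. These 3 were Cox15 by 1.08, Lyrm7 by 0.52 and Surf1 by 0.35. Of 14 biogenesis genes, Tfb1m fell in wildtype heat, and Polg2 and Esrra rose in null heat, Esrra by 0.71 ± 0.20 (adjusted p = 0.044). Esrra was lower in null than wildtype controls by 0.67 ± 0.19 (adjusted p = 0.0319). Of 15 citrate cycle genes 0 changed in wildtype or heterozygous heat, Suclg2 fell in null heat, and Idh3a was lower in null controls. Of 3 carriers tested Slc25a4 fell in heterozygous heat. Over all probes the shares called higher and lower were 1.29% and 1.8% in wildtype heat and 0.743% and 1.58% in heterozygous heat. They were 2.88% and 2.62% in null heat, and 3.69% and 4.69% in null against wildtype controls. Calls in these short lists were not tested against those shares.

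The p53 targets of mitochondria were counted too. No probe for Trp53 itself was used here, so the genotype labels were not checked on the targeted gene. Of the 5 targets with a probe, 2 rose in wildtype heat and 0 fell, against 1.29% of all probes higher and 1.8% lower. These were Pmaip1, by 1.98 ± 0.26, and Bbc3, by 0.99 ± 0.18, while the median of the 5 was -0.211. Both were lower in null than wildtype heat, at -1.49 ± 0.28 and -1.01 ± 0.20, where 0.306% of all probes were called lower. Pmaip1 was also lower in heterozygous than wildtype heat, at -1.41 ± 0.26, and the heat response of Bbc3 differed, null minus wildtype, by -1.12 ± 0.27 (adjusted p = 0.0459). The labelled whole embryo had clear signal for some markers of heart (Actc1, Tnnt2), neural tube (Pax6), somite (Meox1) and yolk sac (Afp, Ttr). Tpbpa of trophoblast and Myog of muscle were empty on 12 and 9 of the 12 control arrays. The lists were mixed. Acta1 of muscle had 0 empty control cells and read 7.34 to 16.2, and Prl8a2 of trophoblast and decidua reached 2.88. Myh6 of heart was empty on all 12 control arrays and reached 0.334 at most.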

How the data were processed

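Intensities of 36227 CodeLink probes in 23 embryo pools were analysed; per the labels' protocols, the cRNA carried biotin, which Alexa-647 streptavidin made visible. The deposited unit is a linear intensity with an array median near 1. How the authors scanned, corrected and normalized the arrays is not given in the sources used here. Control columns hold empty cells and heat columns a -9999 code; both were set missing. Values below an array's 5th percentile of positive values were raised to it, log2 was taken, and arrays were quantile normalized with a map from 18702 probes that no array lacked. Tests covered the 21924 probes measured in 3 or more pools of every group and brighter than the 40th percentile on 3 or more arrays. Group means over 23 arrays were compared with limma 3.58.1 (lmFit, eBayes with trend, two-sided) in R 4.3.3, with Benjamini-Hochberg adjustment over all tested probes and a threshold of 0.05. The heat arrays were also fitted alone. The scripts were tested on simulated data. Gene names came from the platform annotation with symbols updated through RefSeq gene IDs: 21615 probes had 1 symbol, 681 with several and 13931 with none. The number of arrays limits the precision.

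The members and lists were chosen with earlier results of these data known. The text names member probes past the threshold, at most 10 of smallest p per comparison and direction, the 2 of smallest p where none passed, complex IV isoforms and Ndufa4l2, members empty on at least 10 of 12 control arrays, and from each other list the called genes. The members of largest spread were named after their values were seen. No label says that pools of 1 group came from separate litters, so p-values reflect only how far these pools differ, which may be technical. Alternatives covered other scalings, floors, filters, the groups fitted, the split score, 1 probe per gene, a replicate block and each pool left out.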

Additional observations from a re-analysis of the deposited data

Results flagged for a closer look

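In 3 of 105 groups of 4 pools that were checked, 1 pool lay far from the other 3; chance gives about 1 in 20. Sdha in heterozygous heat D read 61.2, against 44.9 to 45.9 in the others. Ndufa3 in wildtype heat A read 91.6, against 96.6 to 97.5, and Ndufb2 in the same pool read 32.9, against 37.9 to 38.6. The heat response of Ndufaf7 probe 1 differed between null and wildtype pools by 0.961 on the log2 scale, while probe 2 of the gene gave 0.252 and did not pass.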

How the results depend on the processing

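Of 857 alternatives over the 27 named results, 741 kept direction and side of the threshold, 107 kept direction but lost the threshold, 6 passed it newly and 3 reversed. The named results include some not called as analysed, which had no threshold to lose. The pooled count therefore does not give how often called results held. The 3 reversals came with quantile normalization that leaves empty cells missing, which moved the median of all probes to 0.896, 0.853 and 0.943 in wildtype, heterozygous and null heat: Ndufaf7 probe 1 and probe 2 gave 0.014 and 0.063 in wildtype heat and probe 2 gave 0.127 in heterozygous heat. Member calls in wildtype heat, 2 as analysed, were 14 when centred, 32 as deposited, 26 with that normalization and 1 with 1 probe per gene. Heterozygous heat, 2, gave 31 with it, 0 with only the groups compared, 1 without the intensity trend, 6 with the split score and 0 to 4 when each pool was left out. Null heat, 6, gave 3 as deposited, 40 with it, 2 with only the groups compared, 0 with the split score and 0 to 7 when each pool was left out. Null against wildtype control, 4, gave 2 when centred, 11 with only the groups compared, 0 with the split score, 2 with 1 probe per gene and 1 to 4 when each pool was left out. Null against wildtype heat, 0, gave 1 when centred (among 258 called probes), 10 as deposited, 2 with the split score and 0 to 2 when each pool was left out. The difference of heat responses, null minus wildtype, 1, gave 2 as deposited, 0 with that normalization, 0 with 1 probe per gene and 0 to 1 when each pool was left out. Those changes' causes were not tested. Apart from centred and deposited values, no share over all probes is given for these settings. This includes the 26, 31 and 40 calls with empty cells left missing. Those counts are therefore not read as particular to the members.

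Whether replicate letters pair the pools cannot be told from these values. Of 55 same-letter pairs 26 correlated above 0.1 (from -0.347 to 0.679), and 9 of 23 arrays correlated best with their own letter. The control pools of letter A correlated with each other at 0.469, 0.259 and 0.312, and those of letter B at -0.32, -0.021 and -0.006. No pairs of different letters are given beside them. With the letter as a replicate block, member calls were 2, 2 and 6 in wildtype, heterozygous and null heat, 5 in null against wildtype control, 1 for the null minus wildtype difference and 0 elsewhere. No share over all probes is given beside these. Faint and very bright members are limited by empty control cells.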
